A study of Mus musculus with 18 samples.

Results

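Mast cells are immune cells that live in connective tissue, and 10 genes known to mark them were followed in mouse fat: the granule protease genes Cma1, Mcpt4, Tpsb2, Tpsab1 and Cpa3, the receptor genes Kit, Ms4a2, Fcer1a and Mrgprb1, and the histamine-forming enzyme gene Hdc. They were picked by name from the 21899 gene IDs of the deposited tables, and all 10 were found. The list was drawn up with the day 21 values of these same libraries known, so every comparison that uses day 21 is given for these genes as a description, with no test. The study took inguinal white adipose tissue, a fat pad under the skin of the groin, from male C57BL/6J mice. The groups were day 21 LLC (n = 5), day 21 PBS (n = 4), day 7 LLC (n = 5) and day 7 PBS (n = 4), where LLC mice carried Lewis lung carcinoma cells, a transplantable mouse lung tumour line injected under the skin, and PBS mice received phosphate-buffered saline by the same route. Day 7 is labelled pre-cachexia and day 21 is labelled cachexia, a tumour-associated loss of fat and muscle. The labels give neither the age of the mice nor whether each library is 1 mouse, so the tests measure the spread between libraries, which may be partly technical.

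Connective tissue mast cells store preformed proteases, histamine and heparin in granules. The granules empty when IgE bound to the high-affinity receptor FcεRI is cross-linked, or when some Mas-related receptors are engaged, and the cells depend on stem cell factor acting through Kit to survive. White fat is known to hold mast cells along its vessels. In a bulk sample, fewer mast cells and less of these RNAs per mast cell cannot be told apart.

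At day 21 most of these genes lay higher in LLC than in PBS libraries while Kit overlapped, so the sequence just upstream of the start is shown for 4 of the separate genes and for Kit. RefSeq windows on GRCm38.p6 were found for 8 of the 10. The 250 bases before the RefSeq start are printed 5′ to 3′ on the gene's strand. RefSeq starts differ in part from the GENCODE gene positions given below. The Kit window runs into the GENCODE gene, and the Hdc window lies inside the GENCODE gene of Hdc. Capitals mark GATAA, the core of the motif bound by GATA factors, or TTATC, the same motif on the other strand. The windows lie at chr14:55944676-55944925 for Cma1, chr14:56062311-56062560 for Mcpt4, chr3:20242182-20242431 for Cpa3 and chr19:11623720-11623969 for Ms4a2, all on the minus strand, and at chr5:75574737-75574986 on the plus strand for Kit.
Cma1: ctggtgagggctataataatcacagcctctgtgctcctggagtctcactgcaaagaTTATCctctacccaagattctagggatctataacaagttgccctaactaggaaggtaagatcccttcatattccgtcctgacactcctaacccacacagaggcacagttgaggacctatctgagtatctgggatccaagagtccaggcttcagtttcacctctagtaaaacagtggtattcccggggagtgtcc
Mcpt4: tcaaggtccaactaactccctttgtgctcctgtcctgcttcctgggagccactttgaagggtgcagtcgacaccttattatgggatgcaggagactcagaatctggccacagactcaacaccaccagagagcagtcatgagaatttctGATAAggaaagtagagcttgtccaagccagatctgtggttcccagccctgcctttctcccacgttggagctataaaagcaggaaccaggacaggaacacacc
Cpa3: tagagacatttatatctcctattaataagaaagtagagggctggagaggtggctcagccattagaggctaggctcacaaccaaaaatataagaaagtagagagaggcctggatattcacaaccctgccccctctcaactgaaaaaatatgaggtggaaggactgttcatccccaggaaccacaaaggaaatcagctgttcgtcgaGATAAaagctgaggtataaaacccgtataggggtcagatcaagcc
Ms4a2: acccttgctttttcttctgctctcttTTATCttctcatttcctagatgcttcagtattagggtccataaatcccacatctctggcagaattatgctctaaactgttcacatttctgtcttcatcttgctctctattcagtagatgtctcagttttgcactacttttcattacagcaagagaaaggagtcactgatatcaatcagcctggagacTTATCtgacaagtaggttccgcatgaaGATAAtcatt
Kit: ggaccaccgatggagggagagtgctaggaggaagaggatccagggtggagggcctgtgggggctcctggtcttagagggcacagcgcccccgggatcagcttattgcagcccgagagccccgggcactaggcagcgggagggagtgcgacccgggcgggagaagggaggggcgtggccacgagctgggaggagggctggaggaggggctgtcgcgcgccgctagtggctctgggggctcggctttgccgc
Counted back from the start, the motif began at base -194 in Cma1, -102 in Mcpt4 and -45 in Cpa3, and at -224, -37 and -10 in Ms4a2. It occurred in the windows of 5 members, the other being Fcer1a, and was not found in those of Kit, Mrgprb1 or Hdc. Mrgprb1 and Hdc, whose windows are not printed, were also separate at day 21. Of all 32851 RefSeq windows of 250 bases, 22.6% held it on either strand. The E-box CATGTG, searched on both strands, was in the window of 1 member, Fcer1a, and in 12.3% of all windows. These matches describe letters and not bound sites.

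Library totals lay between 14566155 and 18969387 counts, with 15516 to 16232 genes detected. Levels are given as CPM, library-scaled counts (counts over library size) after TMM scaling of all 18 libraries together, and as TPM, the authors' length-corrected values, where genes are compared with each other. Day 21 PBS library 4 stood apart from PBS libraries 1 to 3 of its day in markers of other cell types. Its 9 macrophage genes summed to 1968 TPM, against 150 to 302 TPM in the other three. Its 9 progenitor and fibroblast genes summed to 6150 TPM, against 1145 to 1979 TPM, and its 7 lymphatic endothelium genes to 122 TPM, against 9.80 to 14.4 TPM. The 6 skeletal muscle genes summed to 5547 TPM in day 7 PBS library 3 and 1561 TPM in day 7 LLC library 3. At day 21 they summed to 4209 TPM in PBS library 1 and 792 TPM in PBS library 2. LLC libraries 2 and 5 of that day had 1620 and 464 TPM. The remaining libraries had 2.14 to 73.5 TPM. Fold changes of the 4 abundant proteases are given without day 21 PBS library 4 as well.

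The chymase-type and tryptase-type proteases formed most of the summed TPM of the 10 genes in day 21 LLC and in both day 7 groups. Cma1 (ENSMUSG00000022225, GRCm38 chromosome 14, 55941451 to 55944675) encodes mouse mast cell protease 5. It had 20.3, 14.9, 14.7, 23.9 and 10.5 CPM in the 5 day 21 LLC libraries. In the 4 day 21 PBS libraries it had 0.602, 0.818, 0.8475 and 1.54 CPM. At day 7 it had 7.67, 17.3, 11.6, 17.98 and 8.93 CPM in LLC, against 7.99, 10.8, 8.81 and 15.03 CPM in PBS. The day 21 PBS libraries were thus the low group, below every library of the other 3 groups, which overlapped. The log2 fold change of LLC over PBS was 4.12 ± 0.36 (SE) at day 21 and 0.26 ± 0.28 at day 7, where it did not pass (edgeR quasi-likelihood, Benjamini-Hochberg adjusted p = 0.847).

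Mcpt4 (chromosome 14, 56059629 to 56062313), 114953 bases from Cma1 in the same chymase cluster, encodes the main chymase of mouse connective tissue mast cells. Its day 21 values were 27.6, 19.4, 29.3, 29.3 and 17.8 CPM in LLC, against 0.843, 1.32, 0.261 and 2.03 CPM in PBS. Its day 7 values were 11.1, 17.0, 15.6, 21.9 and 14.6 CPM in LLC, against 10.3, 13.9, 9.55 and 20.0 CPM in PBS. As for Cma1, the groups were separate at day 21 and overlapped at day 7, with log2 fold changes of 4.44 ± 0.48 at day 21 and 0.26 ± 0.24 at day 7 (edgeR adjusted p = 0.821). The first-listed transcripts of Cma1 and Mcpt4 were 70.9% identical over 722 aligned bases, with a longest shared run of 27 bases. Whether the authors' read assignment moved any reads between them was not tested.

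Tpsb2 (chromosome 17, 25366305 to 25369098) encodes mouse mast cell protease 6, a tryptase stored on heparin. It had 17.1, 15.8, 26.3, 35.6 and 15.4 CPM in day 21 LLC libraries, against 1.33, 0.567, 0.652 and 2.34 CPM in day 21 PBS libraries. The day 7 values were 5.63, 13.1, 14.7, 17.6 and 8.15 CPM in LLC, against 7.66, 13.3, 7.21 and 17.0 CPM in PBS. The lowest day 7 library was an LLC library, and it still lay above all 4 day 21 PBS libraries. Log2 fold changes of LLC over PBS were 4.14 ± 0.49 at day 21 and 0.08 ± 0.34 at day 7 (edgeR adjusted p = 0.976). The day 7 value was -0.18 without the 2 day 7 libraries high in muscle genes.

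Cpa3 (chromosome 3, 20215620 to 20242181) encodes carboxypeptidase A3, the granule exopeptidase that trims peptides cut by the chymases. Day 21 LLC libraries had 18.7, 12.2, 19.0, 21.3 and 11.9 CPM and day 21 PBS libraries 0.723, 0.189, 0.782 and 1.11 CPM. At day 7, LLC libraries had 8.91, 15.3, 12.2, 18.03 and 8.01 CPM and PBS libraries 6.55, 7.95, 8.25 and 15.4 CPM. It had the highest day 21 log2 fold change of the 8 members fitted there, 4.53 ± 0.44, and 0.39 ± 0.29 at day 7 (edgeR adjusted p = 0.765).

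Tpsab1 (chromosome 17, 25343245 to 25345562), 20742 bases from Tpsb2, encodes the tryptase mouse mast cell protease 7. C57BL/6 mice are known to carry a splice-site mutation in it that removes the protein. Its counts were low: 2, 5, 35, 21 and 14 in day 21 LLC libraries, against 0, 0, 0 and 1 in day 21 PBS libraries, and 0, 13, 9, 22 and 6 in day 7 LLC libraries, against 0, 3, 0 and 5 in day 7 PBS libraries. A count of 0 in the day 21 PBS libraries allows up to 0.181 to 0.196 CPM (3 counts per library). Per TMM-scaled library size, day 21 LLC held 55.8 times as much as day 21 PBS, with a 95% exact interval of 9.73 to 2234 that covers counting error only. The lowest LLC library, with 2 counts, lay under that limit, so the separation of the groups is not firm at this depth, and the gene was too low for the within-day fits. Tpsab1 and Tpsb2 transcripts aligned over 405 bases at 79.0% identity, with a longest shared run of 23 bases. Whether any Tpsab1 counts belong to its more abundant neighbour was not tested.

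**Figure D1:**
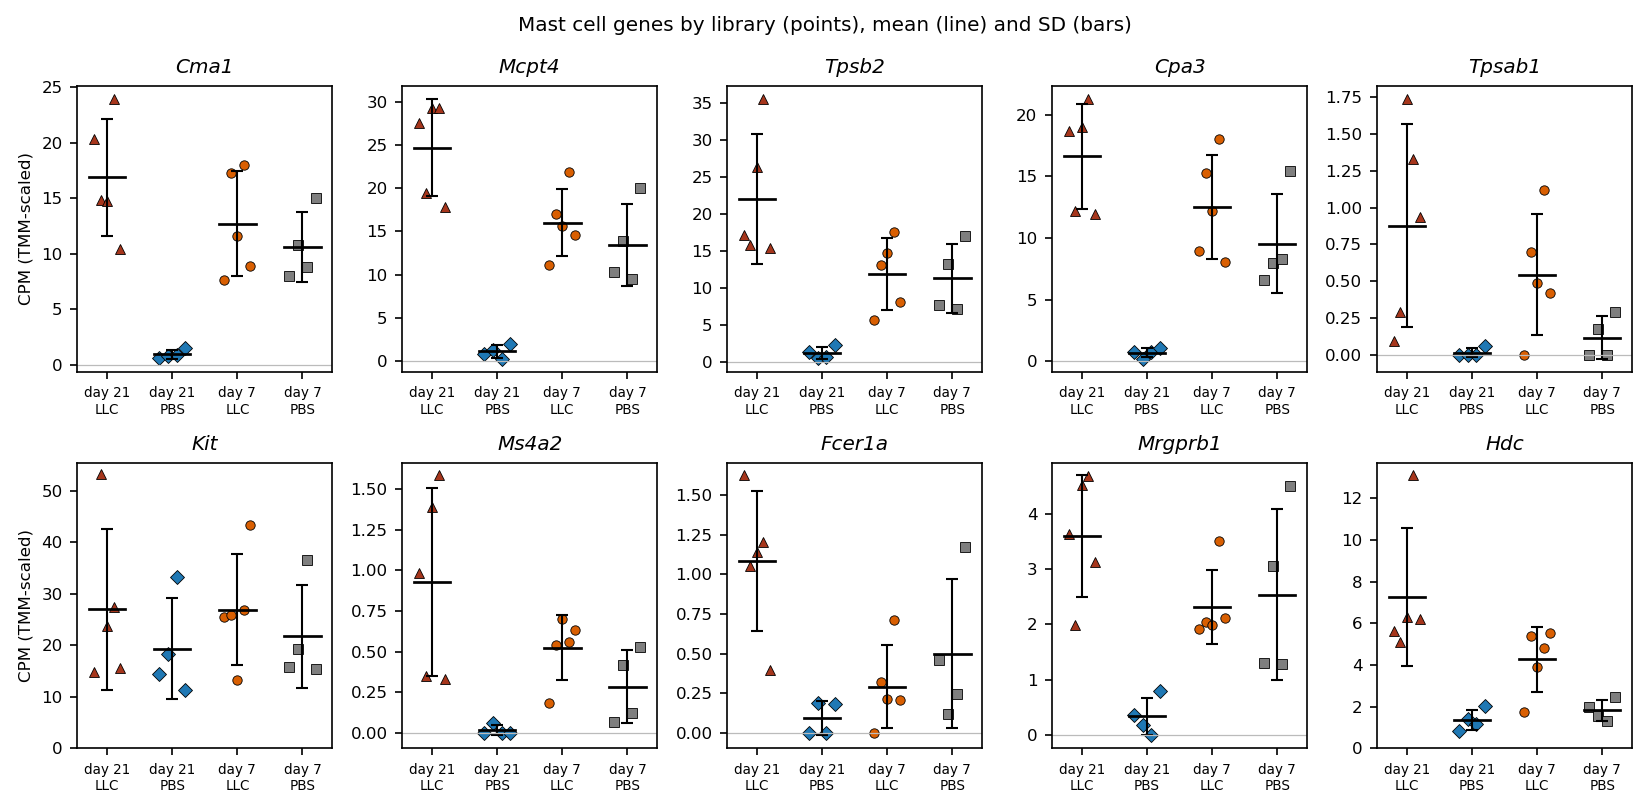
Level of each of the 10 genes in each library, in TMM-scaled CPM on a linear axis with its own range per gene. Points are libraries, horizontal lines group means and bars SD (n = 5 LLC and 4 PBS per day); in 9 of the 10 panels every day 21 LLC point lies above every day 21 PBS point, and Kit is the exception. Among the 8 genes fitted at day 21 this was so for 7, and among all genes fitted for 5.23%. The list was chosen on this contrast, so nothing is read from that share. Of the 8, Fcer1a, with at most 3 counts per day 21 PBS library, passed the low-count filter through its LLC libraries.

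Among the receptors, Kit (chromosome 5, 75574916 to 75656722), the receptor for stem cell factor, behaved apart from the proteases. Its values in day 21 LLC libraries were 14.7, 53.3, 23.8, 27.5 and 15.6 CPM. Day 21 PBS libraries had 14.5, 18.4, 33.4 and 11.3 CPM. Day 7 LLC libraries had 25.5, 25.8, 13.2, 26.8 and 43.4 CPM, against 15.8, 19.4, 36.5 and 15.3 CPM in day 7 PBS libraries. All 4 groups overlapped. The log2 fold change of LLC over PBS was 0.46 ± 0.43 at day 21 and 0.31 ± 0.33 at day 7 (edgeR adjusted p = 0.847), and the day 21 value was 0.05 without LLC library 2 and 0.85 without PBS library 3. The day 7 value was 0.85 without the 2 day 7 libraries high in muscle genes (adjusted p = 0.566 in edgeR). Kit is also known in melanocytes and other cells. The 5 melanocyte genes summed to 2.75 to 4.26 TPM in day 21 LLC and 2.24 to 3.83 TPM in day 21 PBS, and to 2.49 to 3.61 TPM in day 7 LLC and 3.25 to 5.61 TPM in day 7 PBS; their part in Kit's level was not tested. Tyr, the defining melanocyte enzyme, had 5 counts over the day 21 LLC libraries and 3 over the day 21 PBS libraries, and 0 in all day 7 libraries.

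Ms4a2 (chromosome 19, 11615523 to 11623719) and Fcer1a (chromosome 1, 173221284 to 173227214) encode the β and α chains of FcεRI, the IgE receptor. Ms4a2 had 20, 6, 28, 25 and 5 counts in day 21 LLC libraries, against 0, 1, 0 and 0 in day 21 PBS libraries, a ratio per TMM-scaled library size of 60.9 (95% exact interval 10.6 to 2434, counting error only). Its day 7 counts were 3, 10, 13, 11 and 9 in LLC, against 1, 7, 2 and 9 in PBS. Only the day 21 groups were separate, and the gene was too low for the within-day fits. Fcer1a had 33, 18, 23, 19 and 6 counts in day 21 LLC libraries, against 0, 3, 0 and 3 in day 21 PBS libraries, with a ratio of 12.0 (5.31 to 33.4) and a fitted log2 fold change of 3.42 ± 0.81. At day 7 it had 0, 6, 4, 14 and 3 counts in LLC, against 7, 2, 4 and 20 in PBS, and was not fitted. Its α chain signal thus overlapped at day 7, with the highest library a PBS one.

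Mrgprb1 (chromosome 7, 48444113 to 48456342) encodes a Mas-related receptor of the family that includes the mast cell receptor Mrgprb2. It had 3.64, 1.99, 4.51, 4.69 and 3.13 CPM in day 21 LLC libraries, against 0.361, 0.189, 0 and 0.799 CPM in day 21 PBS libraries, where the 0 allows up to 0.196 CPM. Day 7 LLC libraries had 1.92, 2.04, 2.00, 3.52 and 2.11 CPM, against 1.31, 3.05, 1.29 and 4.502 CPM in day 7 PBS libraries. The log2 fold changes of LLC over PBS were 3.36 ± 0.74 at day 21 and -0.13 ± 0.38 at day 7 (edgeR adjusted p = 0.960), and the pairing by replicate number put the day 7 value at 0.00 (adjusted p = 0.998). The day 21 value was 4.20 without PBS library 4 and 1.23 on the log2(TPM + 1) scale. Transcripts of Mrgprb1 and Mrgprb2 were 72.9% identical over 1984 aligned bases, with a longest shared run of 25 bases. Whether their reads were shared was not tested. Mrgprb2 itself averaged 1.45 ± 1.03 CPM in day 21 LLC and 0.246 ± 0.146 CPM in day 21 PBS (SD, n = 5 and 4).

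Hdc (chromosome 2, 126593667 to 126619299) encodes histidine decarboxylase, which makes histamine in mast cells and in some other myeloid cells. It measured 5.65, 5.09, 6.30, 13.1 and 6.20 CPM in day 21 LLC libraries, against 0.843, 1.39, 1.17 and 2.03 CPM in day 21 PBS libraries. At day 7 it measured 1.73, 5.37, 3.89, 4.84 and 5.55 CPM in LLC, against 1.96, 1.55, 1.29 and 2.46 CPM in PBS. At day 7 a single LLC library, library 1, fell within the PBS range and the other 4 lay above it. The log2 fold change was 2.39 ± 0.38 at day 21 and 1.23 ± 0.34 at day 7, the largest day 7 difference among the 7 members fitted. At day 7 Hdc was among the 8.51% of genes with an unadjusted edgeR p under the threshold of 0.05, and it did not pass over all genes (adjusted p = 0.399). DESeq2 placed it just past the threshold (adjusted p = 0.0494), and over the 18 alternatives the adjusted p ran from 0.0494 to 1.00. Of all genes at day 7, DESeq2 called 0.692%.

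Counted over the list, LLC stood above PBS at day 21 without overlap for 7 of the 8 genes fitted, and for 9 of all 10, where 5.23% of the 13564 genes fitted did so; the list was chosen on this contrast, so nothing is read from that share. Fcer1a, with at most 3 counts per day 21 PBS library, passed the low-count filter at day 21 through its LLC libraries. The 8 members fitted all had positive values, as did 51.9% of all genes. Their median log2 fold change was 3.77, beside 0.02 over all genes. Without PBS library 4 the 4 abundant proteases had log2 fold changes of 4.45 to 4.89, and without that library and LLC libraries 1 and 3, of 4.42 to 4.74. At day 7, 0 of the 7 members fitted passed the adjusted threshold of 0.05 and 0 of the 10 were separate, where 0.00744% of the 13445 genes fitted passed and 2.52% were separate. Hdc was the 1 member with an unadjusted edgeR p under 0.05 and the 1 that DESeq2 called. Over all genes 8.51% had such a p and DESeq2 called 0.692%. Among those 7, 6 had positive values and 1 a negative value, with a median of 0.26, beside 0.00 over all genes. Over all genes fitted at day 7, 51.1% had positive values. Within the 4 same-numbered pairs of day 7 libraries, LLC lay above PBS in all 4 for Mcpt4, Cpa3 and Ms4a2, as it did for 9.04% of all genes fitted, in 3 for Cma1, Tpsab1, Kit and Hdc, in 2 for Tpsb2 and Mrgprb1 and in 1 for Fcer1a. The paired fit passed none of the 7 members (edgeR adjusted p of 0.295 for Cpa3 to 0.998 for Mrgprb1).

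The days were also set side by side within each treatment, from 1 fit of all 18 libraries whose comparisons share libraries with those above. In PBS mice, day 21 minus day 7 gave log2 fold changes of -3.47 ± 0.37 for Cma1, -3.58 ± 0.40 for Mcpt4, -3.20 ± 0.48 for Tpsb2, -3.75 ± 0.42 for Cpa3 and -2.88 ± 0.64 for Mrgprb1, but -0.17 ± 0.44 for Kit (0.02 without day 21 PBS library 4) and -0.42 ± 0.39 for Hdc. From few counts, Tpsab1 had -2.48 ± 1.60, Ms4a2 -3.67 ± 1.02 and Fcer1a -2.33 ± 0.98. Without day 21 PBS library 4 the 4 abundant proteases had values of -4.06 to -3.72 and Mrgprb1 of -3.72. For 6 members (Cma1, Mcpt4, Tpsb2, Cpa3, Mrgprb1 and Ms4a2) every day 21 PBS library lay below every day 7 PBS library in CPM, where 8.38% of all 13975 genes did so. For Ms4a2 the closest libraries of the 2 days held 1 count each, so library scaling alone set their order. In LLC mice the values were 0.41 ± 0.28 for Cma1, 0.62 ± 0.30 for Mcpt4, 0.89 ± 0.38 for Tpsb2, 0.41 ± 0.31 for Cpa3, 0.76 ± 0.33 for Hdc and 0.00 ± 0.39 for Kit. All 10 members had positive values there, where 57.8% of all genes did, though Kit's was -0.11 and -0.13 on the TPM scales and -0.40 without day 21 LLC library 2. In LLC mice 0 of the 10 were separate between the days, beside 3.33% of all genes. For Cma1, Mcpt4, Tpsb2, Cpa3 and Mrgprb1, day 21 PBS libraries thus lay below day 7 PBS libraries, while day 21 LLC libraries overlapped day 7 LLC libraries. Day, and any batch of tissue or sequencing that goes with it, cannot be told apart.

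**Figure D2:**
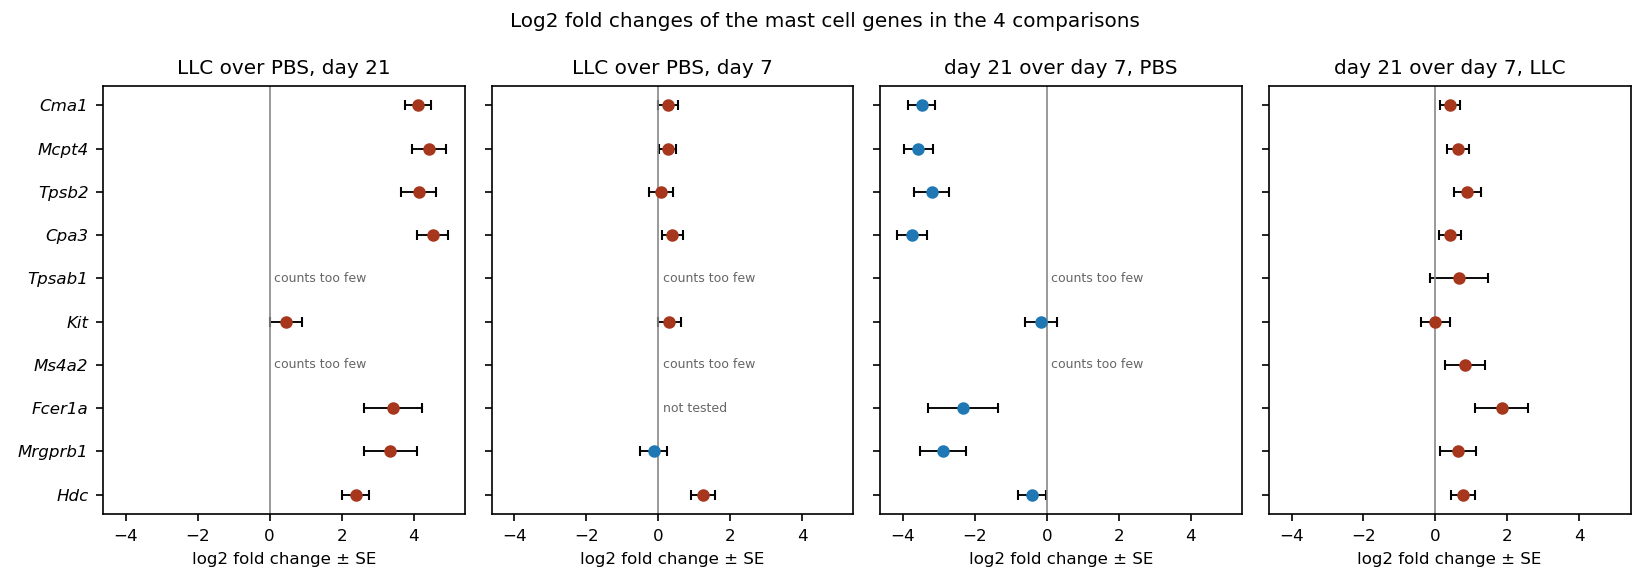
Log2 fold changes (points) with SE (bars) of the 10 genes, from left to right LLC over PBS at day 21 and at day 7, and day 21 over day 7 in PBS and in LLC mice. The 4 abundant proteases sit between 4.12 and 4.53 in the first panel and near 0 in the second. They sit between -3.75 and -3.20 in the third and between 0.41 and 0.89 in the fourth. Genes with too few counts carry a note in place of a point. In the third panel Tpsab1 (-2.48 ± 1.60) and Ms4a2 (-3.67 ± 1.02) carry a note although they were fitted.

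By TPM, which corrects for length, Mcpt4 was the most abundant member in day 21 LLC (42.3 ± 14.7 TPM, SD, n = 5). It was followed by Tpsb2 (35.8 ± 11.8), Cma1 (29.2 ± 9.75), Cpa3 (21.6 ± 7.45) and Kit (9.43 ± 5.20). Neighbours among the 4 proteases overlapped in range. Hdc followed at 5.41 ± 1.34 TPM, Fcer1a at 2.10 ± 1.14, Mrgprb1 at 1.70 ± 0.531, Tpsab1 at 1.03 ± 0.913 and Ms4a2 at 0.840 ± 0.462. In day 21 PBS the order changed: Kit came first with 6.14 ± 2.67 TPM (n = 4), above Tpsb2 with 1.95 ± 1.40, Mcpt4 with 1.74 ± 1.20, Cma1 with 1.51 ± 0.699, Hdc with 0.964 ± 0.382 and Cpa3 with 0.833 ± 0.474. At day 7 the leading gene was Mcpt4 in both groups, with 28.1 ± 7.58 TPM in LLC and 24.3 ± 10.6 TPM in PBS.

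Relative to the summed TPM of Cma1, Mcpt4, Tpsb2 and Cpa3 in the same library, Cpa3 made up a median of 17.1% in day 21 LLC and 14.5% in day 21 PBS, and 19.3% in day 7 LLC and 17.2% in day 7 PBS. Its share ran from 15.4% to 17.9% in day 21 LLC, against 4.99% to 24.9% in day 21 PBS, so the groups overlapped. Hdc differed from Cpa3 in this respect, since its TPM was 3.28% to 5.76% of that sum in day 21 LLC, against 11.8% to 22.6% in day 21 PBS. At day 7 it was 2.56% to 6.76% of the sum in LLC, against 1.63% to 2.92% in PBS. Kit's TPM was 3.92% to 19.0% of the sum in day 21 LLC, against 35.0% to 294% in day 21 PBS. At day 7 it was 5.43% to 24.1% in LLC, against 5.08% to 24.1% in PBS. Few counts stand behind the day 21 PBS shares of the proteases (45 for Cpa3 over the 4 libraries).

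**Figure D3:**
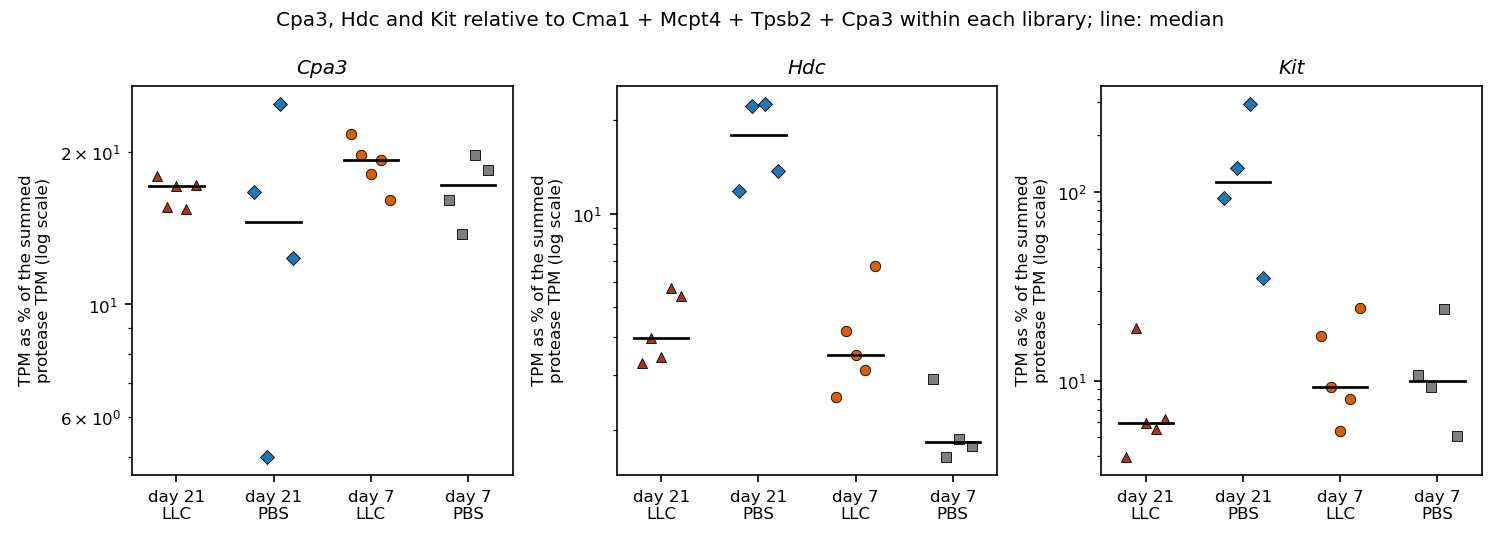
TPM of Cpa3, Hdc and Kit as a percentage of the summed TPM of Cma1, Mcpt4, Tpsb2 and Cpa3 in the same library, on log axes; points are libraries and lines medians. The 4 groups overlap for Cpa3, with a wide spread in day 21 PBS, whereas Hdc (11.8% to 22.6%) and Kit (35.0% to 294%) are high in day 21 PBS libraries.

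Across the 14 libraries outside day 21 PBS, the log2 CPM of the 4 abundant proteases followed each other, with Pearson r of 0.852 to 0.919 over their 6 pairs. Against those 4, r was 0.767 to 0.889 for Ms4a2, 0.702 to 0.862 for Mrgprb1, 0.706 to 0.812 for Hdc, 0.720 to 0.792 for Fcer1a and 0.605 to 0.789 for Tpsab1, and -0.147 to -0.028 for Kit. These are descriptions over libraries of 3 groups, whose values share the same library scaling. With the same 14 libraries, the genes most like the members' mean profile among 12793 candidates were Pdlim1 (r = 0.900), Slc10a6 (0.878), Tbc1d8 (0.874), Fxyd5 (0.873), Jaml (0.872), Hmgxb4 (0.856), Sdc4 (0.856), Cebpd (0.849), Stxbp2 (0.848) and Fam174b (0.847). Pdlim1 measured 53.3 ± 14.9 CPM in day 21 LLC (SD, n = 5) and 16.9 ± 8.51 CPM in day 21 PBS (n = 4). With all 18 libraries 3 of these 10 stayed among the 10 most alike, and with Spearman's rho 4 did.

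In day 21 PBS library 4 the 4 abundant proteases were low while the macrophage genes were at day 7 levels. Their summed TPM was 84.7 to 170 in day 21 LLC, against 11.02 in that library and 3.39 to 5.50 in day 21 PBS libraries 1 to 3, and it was 53.7 to 128 in day 7 LLC and 50.2 to 125 in day 7 PBS. The macrophage sum of PBS library 4, 1968 TPM, lay within the day 7 ranges of 941 to 2300 TPM in LLC and 1270 to 2407 TPM in PBS, whereas its protease sum lay below every library of those groups. Red cell and T cell genes were low in it as well, at 1001 TPM and 3.58 TPM, each the lowest of the 18 libraries. Its endothelial genes summed to 412 TPM, below every day 7 library. Day 21 PBS libraries 1 to 3 had less of them, 269 to 379 TPM. The part of the low macrophage, progenitor and lymphatic levels in PBS libraries 1 to 3 in the members' values was not tested. Basophils share Fcer1a, Ms4a2 and Hdc with mast cells. Their 4 genes summed to 8.31 to 28.8 TPM in day 21 LLC, 8.87 to 22.9 TPM in day 21 PBS, 8.06 to 28.6 TPM in day 7 LLC and 16.5 to 21.5 TPM in day 7 PBS, most of it from Il3ra. Of their defining proteases, Mcpt8 was at 0 counts in all 18 libraries, while Prss34 had 25 counts over the day 21 LLC libraries and 1 over the day 21 PBS libraries, without overlap, and 13 over the libraries of either day 7 group. Of the marker genes of 15 other cell types, 2 passed in LLC over PBS at day 21: Mmrn1 of lymphatic vessels (5.74 ± 0.66, edgeR adjusted p = 0.0169) and Alas2 of red cell precursors (2.78 ± 0.39, adjusted p = 0.0489). With each library left out in turn the adjusted p ran from 0.00407 to 0.0912 for Mmrn1 and from 0.0105 to 0.192 for Alas2. The summed TPM was separate between the day 21 groups for 4 of the 15 cell types. It was higher in LLC for red cell genes (4673 to 12558 TPM in LLC, against 1001 to 2199 TPM in PBS), endothelial genes (425 to 743 TPM, against 269 to 412 TPM) and skin epithelium genes (11.9 to 36.1 TPM, against 2.05 to 11.3 TPM). It was lower in LLC for Schwann cell genes (98.5 to 314 TPM, against 380 to 727 TPM). Of the 7 skin epithelium genes, 2 were fitted at day 21, 1 higher and 1 lower in LLC. Singly, 0 of the 7 were separate between the day 21 groups. Red cell genes were separate at day 7 too, with 3866 to 8893 TPM in LLC, against 2674 to 3223 TPM in PBS. Their part in the members' values was not tested. The 7 eosinophil genes summed to 34.5 to 55.1 TPM in day 21 LLC and 4.25 to 38.7 TPM in day 21 PBS. Of these 7, 1 was fitted at day 21, Ear2, with a mean of 13.7 CPM over all 18 libraries. Each of the others averaged at most 0.459 CPM. Singly, 1 of the 7 was separate between the day 21 groups: Il5ra, higher in LLC, with a mean of 0.389 CPM and not fitted.

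**Figure D4:**
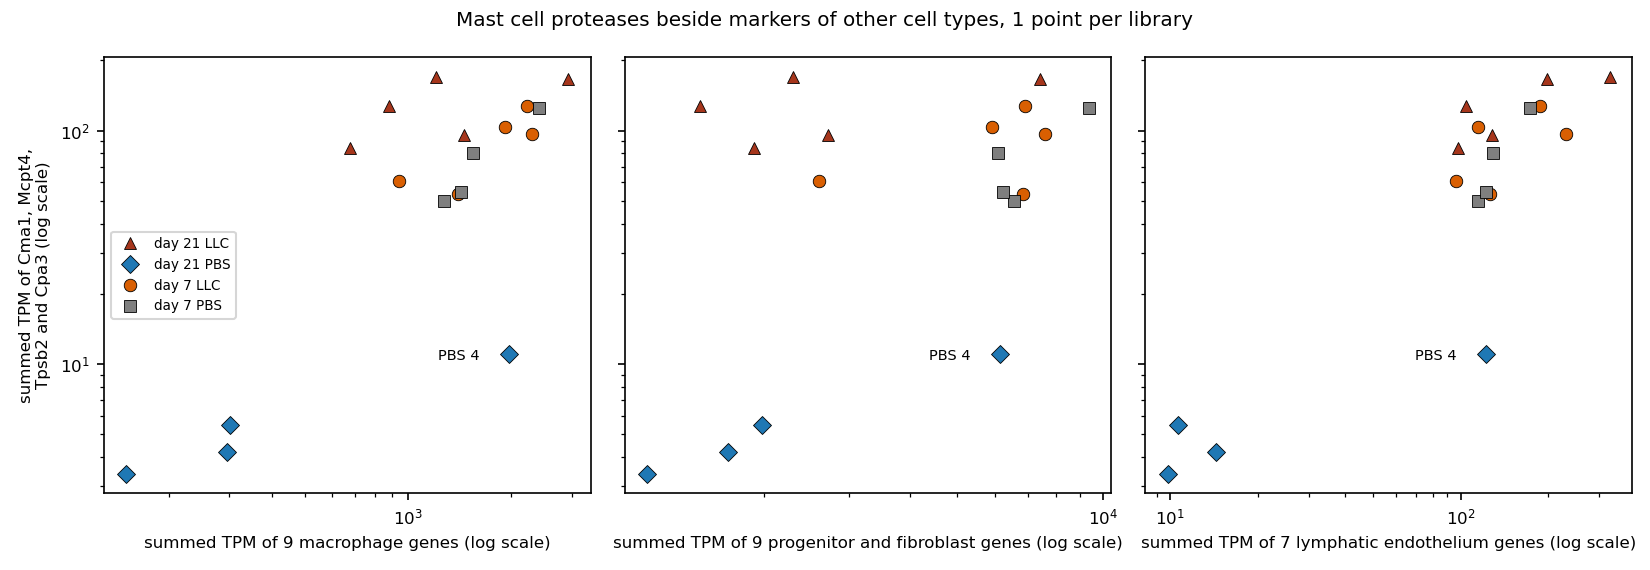
Summed TPM of Cma1, Mcpt4, Tpsb2 and Cpa3 in each library (log axis) against the summed TPM of macrophage, progenitor and fibroblast, and lymphatic endothelium genes (log axes). Day 21 PBS library 4 (labelled PBS 4) lies with the day 7 libraries along each horizontal axis but at 11.02 TPM on the vertical one, below all libraries of the other 3 groups.

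Other genes of mast cell biology were set out in 6 lists. Among the mucosal-type proteases, Mcpt1 and Mcpt9 were at 0 counts in all libraries and Mcpt2 had 1 count in all. In 0 of the 6 lists did a gene pass edgeR in LLC over PBS at day 21, where 0.0885% of all genes passed and 23.3% had an unadjusted p under 0.05, or at day 7. Of their 47 genes fitted at day 21, 22 had an unadjusted edgeR p under 0.05 and DESeq2 called 15, where it called 11.5% of all genes. Of the 48 fitted at day 7, 7 had such a p and DESeq2 called 1, where it called 0.692% of all genes. Of the 6 other granule genes fitted at day 21, 5 were higher and 1 lower, with a median log2 fold change of 0.40. Srgn, the proteoglycan core that holds granule proteases and is also made by many blood cells, averaged 78.9 ± 26.6 CPM in day 21 LLC and 42.8 ± 3.34 CPM in day 21 PBS, without overlap (log2 fold change 0.86 ± 0.23, edgeR adjusted p = 0.0926). Slc18a2, which loads histamine into granules, averaged 2.84 ± 0.875 CPM in day 21 LLC and 1.59 ± 0.480 CPM in day 21 PBS (0.81 ± 0.33, adjusted p = 0.186).

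Of the 7 lipid mediator genes, 6 had positive and 1 a negative day 21 value (median 1.22). Ptgs2, the inducible cyclooxygenase, had the largest, averaging 2.67 ± 1.51 CPM in day 21 LLC and 0.668 ± 0.774 CPM in day 21 PBS, with overlap (1.97 ± 1.05, edgeR adjusted p = 0.282). Ptgs1, the constitutive cyclooxygenase, averaged 25.4 ± 4.47 CPM in day 21 LLC and 8.14 ± 4.82 CPM in day 21 PBS, without overlap (1.62 ± 0.33, edgeR adjusted p = 0.0638). Of 13 other receptor and signalling genes, 11 had positive values (median 1.44). Csf2rb2, a β chain for interleukin-3, averaged 65.4 ± 24.2 CPM in day 21 LLC and 16.9 ± 15.03 CPM in day 21 PBS, without overlap (1.93 ± 0.50, edgeR adjusted p = 0.0876). Btk, a kinase downstream of FcεRI, had 2.05 ± 0.92 (edgeR adjusted p = 0.214). Of the 5 transcription factors fitted, 3 had positive and 2 negative values. Mitf had 0.83 ± 0.33 (edgeR adjusted p = 0.172) and Stat5a -0.61 ± 0.19 (edgeR adjusted p = 0.112). Gata2, which mast cells need to develop, averaged 15.03 ± 4.44 CPM in day 21 LLC and 12.9 ± 1.77 CPM in day 21 PBS.

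Of the 8 growth and recruitment factors fitted, 7 had positive values (median 0.37). Kitl, which encodes stem cell factor, averaged 97.5 ± 18.4 CPM in day 21 LLC and 85.3 ± 17.7 CPM in day 21 PBS. Il33 had a log2 fold change of 1.62 ± 0.71 (edgeR adjusted p = 0.209) and Ccl2 of 2.64 ± 0.94 (adjusted p = 0.144). Among 8 receptors and targets of mast cell mediators, 6 had positive values (median 0.78), with Agt at 1.77 ± 0.62 (adjusted p = 0.141) and Cysltr1 at 1.499 ± 0.45 (adjusted p = 0.111). Between days in PBS mice 2 genes of that list passed, both lower at day 21: Hrh2, a histamine receptor (-0.87 ± 0.21, edgeR adjusted p = 0.0382), and Agtr1a, the receptor for the angiotensin II that chymases can form (-0.86 ± 0.19, adjusted p = 0.0262). In LLC mice Csf2rb passed, higher at day 21 (0.87 ± 0.18, adjusted p = 0.0271). Mrgprb2, Gata2, Kitl and these 3 were named after their values were seen; 3.21% of all genes passed between days in PBS mice and 1.77% in LLC mice.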

How the data were processed

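Libraries were prepared from poly(A)-selected RNA (NEBNext Ultra), per the labels' protocols. Per the submitters' processing notes, reads were handled with fastp 0.23.0 and RSEM (no version) on mm10, also called GRCm38; no aligner or annotation release is named. The deposited whole-number count columns, 1 table per day, are treated here as rounded RSEM estimated counts. The deposited TPM values are the authors' length-scaled ones, and 176 of them exceeded 0 where the count was 0.

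Counts were fitted with edgeR 4.0.16 in R 4.3.3 (TMM, filterByExpr, two-sided quasi-likelihood tests, Benjamini-Hochberg over all genes, threshold 0.05), within each day for LLC over PBS and over all 18 libraries for day 21 over day 7. An SE is approximate, derived from the fold change and its F statistic. The code was tested on simulated data. Alternatives used DESeq2 1.42.0, limma 3.58.1 on log2(TPM + 1) or log2(TPM + 0.1), other filters and fewer libraries. The members and lists were chosen with earlier results of these data known. From each mast cell list were named the genes past the threshold within a day. The 2 largest day 21 changes with a mean of at least 1 CPM were named too. From cell type lists the rule named those past the threshold. Outside these rules, Mcpt1, Mcpt2, Mcpt9, Tyr, Il3ra, Mcpt8, Prss34, Ear2 and Il5ra were also named, as were genes named after their values were seen. The genes most alike were ranked by Pearson's r.

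Groups came from the sample titles. Deviations of same-numbered day 7 libraries had correlations of 0.207, 0.120, 0.531 and 0.190, so values by same-numbered pair are also given there. At day 21 the correlations were -0.273, 0.302, 0.0925 and -0.158. The main fits of both days were unpaired, and a fit with a replicate block was an alternative at each day. Over the 32 same-group pairs the lowest chi-square per gene was 15.2, so each library counted as a replicate. Positions are 1-based on GRCm38 from GENCODE, which matched 21806 IDs. Intervals and the limit of 3 counts cover counting error only.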

Additional observations from a re-analysis of the deposited data

Results flagged for a closer look

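Of 80 groups of values examined for 1 library far from the rest of its group, 16 were marked. The limits mark about 1 in 20 for independent, normally distributed values. Low counts and marker sums that share libraries need not be such values, so no excess is read from the 16. Each is given as the gap to the nearest library over the group's range. Among the members, Tpsab1 in day 21 PBS (1.0, library 4) and Ms4a2 in day 21 PBS (1.0, library 2) each had 1 count in 1 library and 0 in the others. Mrgprb1 was highest in day 7 LLC library 4 with 3.52 CPM (0.880), and Hdc in day 21 LLC library 4 with 13.1 CPM (0.849).

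The remainder were sums of marker genes. Day 21 PBS library 4 was highest for macrophage (0.916), progenitor and fibroblast (0.833), lymphatic (0.959), eosinophil (0.913) and basophil genes (0.861), while it was not marked for any of the 4 abundant proteases. Progenitor and fibroblast genes were highest in day 21 LLC library 1 (0.792) and day 7 PBS library 4 (0.859). B cell and lymph node genes were highest in day 21 LLC library 3 (0.766). Skeletal muscle genes were highest in day 21 LLC library 2 (0.715), day 7 LLC library 3 (0.971) and day 7 PBS library 3 (0.997), and skin epithelium genes were lowest in day 7 PBS library 2 (0.857).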

How the results depend on the processing

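The counts of genes called depended on the setting, and the cause was not tested. LLC over PBS at day 21 called 12 genes, against 1555 with DESeq2, 61 and 78 with limma on log2(TPM + 1) and log2(TPM + 0.1), 2660 in the fit of all 18 libraries, 2 with the replicate block, 962 with 3 libraries left out, and 0 to 1277 with each library left out in turn (1277 without PBS library 4). At day 7 it called 1 gene, against 93 with DESeq2, 0 in the fit of all libraries, 0 with 2 libraries left out, 1 with the replicate block and 0 to 3 with each left out. Day 21 over day 7 called 449 genes in PBS (1109 with DESeq2, 798 with 2 groups fitted, 41 to 1692 with each left out) and 248 in LLC (812 with DESeq2, 139 with no filter, 27 and 24 with limma, 2 with 2 groups fitted, 15 to 1036 with each left out). TPM scaling shifted the median of all genes by 0.13 to 0.15 at day 21 and by -0.17 to -0.20 between days in PBS.

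The day 21 fold changes of the 8 fitted members stayed positive in all alternatives run, as low as 0.05 for Kit. On log2(TPM + 1) they were smaller for Cpa3 (3.603), Hdc (1.70), Fcer1a (1.35) and Mrgprb1 (1.23). At day 7, values near 0 changed sign: Tpsb2 was -0.11 to 0.34 with each library left out and -0.18 with 2 left out, and Mrgprb1 was -0.35 to 0.30, 0.012 and 0.096 on the TPM scales and 0.0044 with the replicate block. Between days in LLC, Kit was -0.40 to 0.24 with each left out. Pairing changed no day 7 call among members. Depth limits Tpsab1, Ms4a2 and Fcer1a, whose libraries held at most 35 counts each.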
